A study of Homo sapiens with 12 samples.

Results

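Genes that were close to silent in proliferating fibroblasts and measurable once the cells had become senescent were picked out of the RNA-seq counts by a rule on both control groups. A gene was a member if its level was under 0.1 CPM (counts scaled to the total of the library) in all 3 proliferating siCtrl libraries and at 1 CPM or more in all 3 senescent siCtrl libraries. The members were thus chosen by these measured levels, and the difference between the 2 control groups is a description, not a test. The rule found 3 genes among the 57773 listed: COL2A1 (ENSG00000139219), ENSG00000104725 and ENSG00000090920. The name tables used here pair neither of the last pair of identifiers with a symbol or a position, so they are called by identifier. Separately, 36053 genes were under the upper limit in proliferating cells and 15059 were at the lower limit in senescent cells, so genes that crossed both limits were few. The opposite rule, from 1 CPM or more in proliferating libraries to under 0.1 CPM in senescent ones, was met by 1 gene.

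The cells were WI-38, a line of human diploid lung fibroblasts, in 4 groups of 3 libraries. Proliferating cells received vehicle for 8 days and a non-targeting siRNA (siCtrl_Prolif). Senescent cells received 50 µM etoposide, a topoisomerase II inhibitor that breaks DNA, for 8 days together with the non-targeting siRNA (siCtrl_Sen) or with a pool of siRNAs against NTRK2, the gene of the neurotrophin receptor TrkB (siNTRK2_Sen), or against BDNF, its ligand (siBDNF_Sen). Every siRNA was used at 25 nM, so all groups share transfection and all senescent groups share etoposide. Each target was silenced with 1 pool of siRNAs, so effects on other mRNAs cannot be told apart from effects of the target. The study's methods speak of independent experiments in general, and the labels do not say which libraries came from which experiment. P-values measure the spread between these libraries.

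Totals ranged from 31567912 to 72328151 counts per library, and 1 CPM was 57 to 59 counts in the siCtrl_Sen libraries. The NTRK2 mRNA had 7, 15 and 10 counts in siCtrl_Sen, 10, 23 and 29 in siBDNF_Sen and 0 in each siNTRK2_Sen library. The BDNF mRNA was at 161 ± 4.77 CPM (SD, n = 3) in siCtrl_Sen and at 48.7 ± 2.9 (SD, n = 3) in siBDNF_Sen. It was at 153 ± 6.77 CPM (SD, n = 3) in siCtrl_Prolif and at 206 ± 0.747 (SD, n = 3) in siNTRK2_Sen. The silenced groups thus lay on either side of siCtrl_Sen in BDNF mRNA. Both targeted mRNAs were thus lowest in the libraries labelled for them. All 8 fibroblast markers looked for (collagens, DCN, LUM, PDGF receptors and THY1) were at 1 CPM or more in every siCtrl_Sen library. The summed level of 5 proliferation markers (MKI67, TOP2A, CCNB1, CDK1 and BUB1) was 211 to 236 CPM in siCtrl_Prolif and 27.2 to 30.8 in siCtrl_Sen.

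Senescence is a lasting arrest of the cell cycle in which cells stay alive, change their chromatin and secrete inflammatory and matrix-remodeling factors. A level near 1 CPM corresponds to little mRNA. In bulk samples, fewer cells with the mRNA and less mRNA per cell cannot be told apart. COL2A1 encodes the chain of type II collagen, the main fibrillar collagen of cartilage. Of the genes proposed as markers of this group, KIF1A encodes a kinesin that carries synaptic vesicle precursors along axons, PTPRT a receptor-type tyrosine phosphatase found mainly in the nervous system, and PTPRC the phosphatase CD45 of leukocytes.

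None of these 3 proposed markers met the rule. KIF1A lies on chromosome 2 (hg19, 241653178 to 241763710, minus strand), PTPRT on chromosome 20 (40701392 to 41818610, minus strand) and PTPRC on chromosome 1 (198607587 to 198726605, plus strand), and all 3 are protein-coding. KIF1A had 0 counts in all 3 siCtrl_Prolif libraries and 56, 68 and 68 counts in siCtrl_Sen, 1 count short of the 57 that the first library needed. PTPRT also had 0 counts in proliferating cells, and its lowest senescent level was 0.87 CPM. PTPRC likewise had 0 counts, and its lowest senescent level was 0.798 CPM. The label of the group as genes switched on from silence therefore held for them on the proliferating side of the rule and fell short on the senescent side. With the lower limit at 0.5 CPM, an alternative to the rule, 54 genes qualified, among them the 3 members, KIF1A, PTPRT and PTPRC. These 54 genes are called the wider set below, and 10 of them had 0 counts in all 3 proliferating libraries (KIF1A, PTPRT, PTPRC, CXCL14, KIAA1671, PDK4, DGKB, KCNN3, LIPF and RPH3A).

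The starts of 5 genes of the wider set are printed to show how unlike they are in base composition: the 3 proposed markers, and SLC6A4 and ALK, for which the silenced groups differed most among the protein-coding genes. The sequences are from RefSeq (GRCh38.p14), run from 250 bases before to 50 bases after a listed start, and are written 5′ to 3′ on the strand of the gene, with matches to the GC box (GGGCGG) or the CCAAT box on either strand in capitals.
KIF1A, chr2:240821354-240821653, minus strand, the first of 3 starts listed: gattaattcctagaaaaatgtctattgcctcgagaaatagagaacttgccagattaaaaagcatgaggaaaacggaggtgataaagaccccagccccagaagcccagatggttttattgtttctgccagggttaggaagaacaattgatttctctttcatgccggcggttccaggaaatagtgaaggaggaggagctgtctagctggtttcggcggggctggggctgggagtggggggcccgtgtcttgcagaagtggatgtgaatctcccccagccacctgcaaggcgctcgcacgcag
PTPRT, chr20:43189857-43190156, minus strand: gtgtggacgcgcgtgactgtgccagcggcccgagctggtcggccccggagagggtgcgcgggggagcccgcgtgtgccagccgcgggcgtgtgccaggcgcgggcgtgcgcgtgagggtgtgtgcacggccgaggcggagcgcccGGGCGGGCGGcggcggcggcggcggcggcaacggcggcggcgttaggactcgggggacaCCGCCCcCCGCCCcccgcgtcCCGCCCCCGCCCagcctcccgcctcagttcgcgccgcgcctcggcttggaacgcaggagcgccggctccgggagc
PTPRC, chr1:198638790-198639089, plus strand: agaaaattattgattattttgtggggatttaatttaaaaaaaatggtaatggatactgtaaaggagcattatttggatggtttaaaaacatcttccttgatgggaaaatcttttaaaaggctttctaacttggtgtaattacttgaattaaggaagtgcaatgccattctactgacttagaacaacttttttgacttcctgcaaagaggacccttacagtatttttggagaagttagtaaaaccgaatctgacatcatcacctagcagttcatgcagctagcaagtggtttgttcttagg
SLC6A4, chr17:30235648-30235947, minus strand: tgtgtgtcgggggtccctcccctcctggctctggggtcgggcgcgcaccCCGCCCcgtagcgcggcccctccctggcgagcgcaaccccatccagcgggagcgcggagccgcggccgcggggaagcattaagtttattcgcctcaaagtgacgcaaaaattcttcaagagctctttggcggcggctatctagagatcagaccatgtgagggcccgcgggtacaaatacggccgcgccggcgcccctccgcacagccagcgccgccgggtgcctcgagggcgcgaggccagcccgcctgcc
ALK, chr2:29921537-29921836, minus strand, the first of 2 starts listed: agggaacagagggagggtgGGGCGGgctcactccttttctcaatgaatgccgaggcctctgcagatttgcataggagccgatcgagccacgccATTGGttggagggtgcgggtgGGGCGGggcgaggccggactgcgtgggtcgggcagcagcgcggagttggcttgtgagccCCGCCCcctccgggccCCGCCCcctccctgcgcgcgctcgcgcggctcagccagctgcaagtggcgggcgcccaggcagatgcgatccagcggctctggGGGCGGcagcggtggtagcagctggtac
The PTPRT window was 81.7% G or C with 53 CpG pairs and held 6 matches to GGGCGG, some of which overlap. The PTPRC window was 33.7% G or C with 1 CpG pair, and the KIF1A window 51.7% with 10. SLC6A4 had 36 CpG pairs and 1 match to GGGCGG, and ALK 28 CpG pairs, 5 matches to GGGCGG and 1 to CCAAT. The median over all 27305 such windows was 58.3% G or C and 14 CpG pairs. GGGCGG occurred in 44.6% of all windows and CCAAT in 35.7%. The TATA box (TATAAA) occurred in 11.95% of all windows, the AP-1 site (TGACTCA) in 4.92% and the E box (CACGTG) in 7.435%. These 5 windows held no match to them on either strand, which says only that these letters are not there.

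COL2A1 lies on the minus strand of chromosome 12 (hg19, 48366750 to 48398337) and is protein-coding, with 6.66 kb of exons in a gene of 31.6 kb. Its counts were 0, 3 and 1 in siCtrl_Prolif and 63, 66 and 85 in siCtrl_Sen, or 1.11, 1.15 and 1.45 CPM. The ratio of summed senescent to proliferating counts, each scaled to the summed library totals, was 51.9. Its 95% interval, from 19.97 to 192, covers counting error only. These values chose the gene and carry no test. Per kb of exon, COL2A1 had the highest level of the 4 annotated genes just named, 0.185 CPM per kb in siCtrl_Sen, against 0.0737 for PTPRT, 0.062 for KIF1A and 0.0606 for PTPRC.

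ENSG00000104725 had 2, 4 and 3 counts in siCtrl_Prolif and 59, 102 and 64 in siCtrl_Sen, a scaled ratio of 24.2 (95% counting interval 12.5 to 53.7). ENSG00000090920 had 5, 3 and 0 counts in siCtrl_Prolif and 71, 65 and 60 in siCtrl_Sen, a scaled ratio of 23.8 (95% counting interval 11.8 to 55.8). Both were thus detected in most proliferating libraries, at up to 0.0773 and 0.0881 CPM. They are the members nearest to both limits, since their lowest senescent levels were 1.04 and 1.02 CPM. Just outside the lower limit were KIF1A at 0.984 CPM and ATP2B2, a calcium pump of the plasma membrane, at 0.921 CPM. An identifier without a symbol in the name tables followed at 0.896 CPM. Just outside the upper limit were RET, a receptor tyrosine kinase, with a highest proliferating level of 0.103 CPM, and UNC13A, which primes synaptic vesicles, and FRAS1, a basement membrane protein, both at 0.123 CPM.

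**Figure D1:**
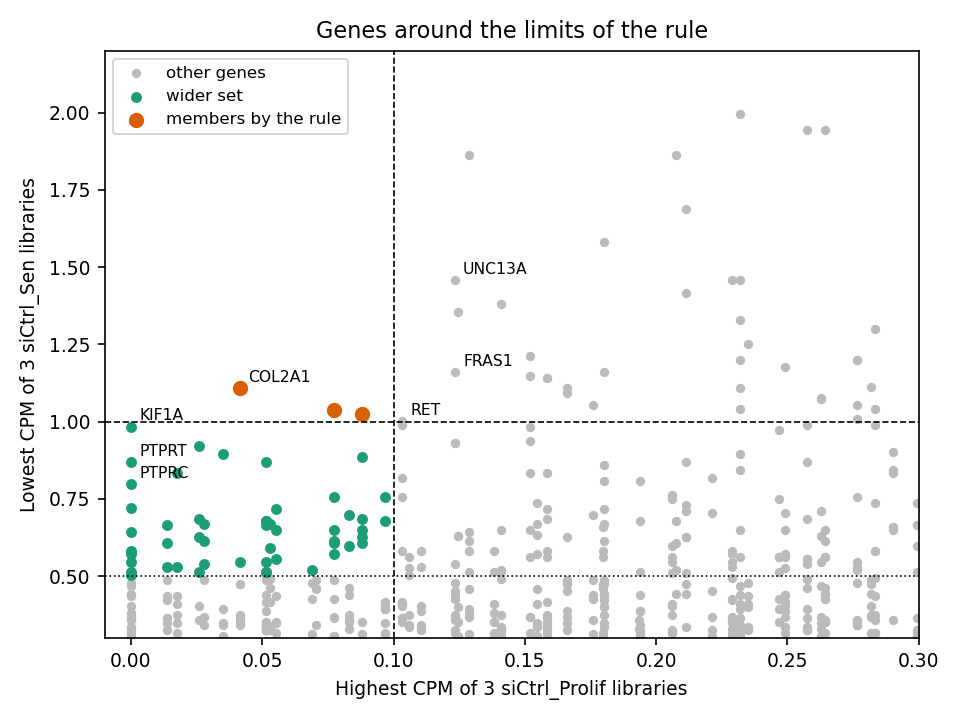
Each point is a gene, placed by its highest CPM in the 3 siCtrl_Prolif libraries (horizontal axis) and its lowest CPM in the 3 siCtrl_Sen libraries (vertical axis), with the limits at 0.1 and 1 CPM dashed and the wider limit of 0.5 CPM dotted. The 3 members lie in the upper left field, between 1.02 and 1.11 CPM on the vertical axis, and KIF1A lies at 0.984, just under the line.

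All 3 members stayed above their proliferating level after both silencings, a level that the rule had held under 0.1 CPM. COL2A1 was at 1.06, 1.27 and 1.41 CPM in siNTRK2_Sen and at 1.93, 2.10 and 1.53 in siBDNF_Sen. ENSG00000104725 was at 0.666, 0.951 and 0.789 CPM in siNTRK2_Sen and at 2.25, 1.73 and 1.86 in siBDNF_Sen. ENSG00000090920 was at 1.69, 0.526 and 0.601 CPM in siNTRK2_Sen and at 1.43, 1.49 and 2.01 in siBDNF_Sen. The siBDNF_Sen libraries were all above the siCtrl_Sen libraries for COL2A1 and ENSG00000090920, where 37.3% of all tested genes did not overlap. The siNTRK2_Sen libraries were all below the siCtrl_Sen libraries for ENSG00000104725, the member under 1 CPM in all 3 siNTRK2_Sen libraries, where 32.8% of all tested genes did not overlap. The siNTRK2_Sen level of ENSG00000090920 rested on replicate 1, which was 1.69 CPM where the other two were near 0.5 to 0.6.

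Against siCtrl_Sen, the libraries of the rule, no member passed an adjusted p of 0.05 (edgeR's quasi-likelihood test, Benjamini-Hochberg adjustment over 21518 genes), with either siRNA. With siNTRK2, where 21.1% of all tested genes passed, 1 of the 3 members had an unadjusted p under 0.05, as did 32.4% of all genes, and 0 passed by DESeq2's Wald test. That member was ENSG00000104725, at a log2 fold change of -0.72 (SE 0.26, adjusted p = 0.0511), and leaving out siCtrl_Sen replicate 1 or siNTRK2_Sen replicate 2 put it past the threshold. Without siCtrl_Sen replicate 2, which was at 1.77 CPM, the log2 fold change of ENSG00000104725 was -0.43 (adjusted p = 0.304 from edgeR). ENSG00000090920, at -0.26, was at -1.02 (adjusted p = 0.0336 from edgeR) without siNTRK2_Sen replicate 1. With siBDNF, where 20.5% of all genes passed, 2 of the 3 had an unadjusted p under 0.05, as did 30.7% of all genes, and 0 passed by DESeq2's Wald test. The log2 fold changes with siBDNF were 0.52 for COL2A1 (adjusted p = 0.135), 0.52 for ENSG00000104725 (adjusted p = 0.153) and 0.49 for ENSG00000090920 (adjusted p = 0.351), and ENSG00000104725 passed without siCtrl_Sen replicate 2 (adjusted p = 0.0363). With an absolute log2 fold change over 1 required in addition, 0 members passed with siNTRK2 and 0 with siBDNF, where 0.957% and 0.609% of all genes did. Both comparisons use the siCtrl_Sen libraries, and these had to be high for a gene to qualify.

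The comparison of siNTRK2_Sen with siBDNF_Sen is between 6 libraries that the rule did not use. The fit took its estimate of the spread from all 12 libraries, so the libraries of the rule enter the p-values. ENSG00000104725 was lower with siNTRK2 than with siBDNF, at a log2 fold change of -1.23 (SE 0.26, adjusted p = 0.00124 from edgeR), with no overlap between the groups. It was the 1 of 3 members to pass, where 7.86% of all tested genes passed in that direction and 16.7% in either, and it also passed with the fold change cutoff, as 1.16% of all genes did. Its adjusted p was between 1.84e-04 and 0.0102 over 14 alternative settings, all past the threshold. COL2A1 had a log2 fold change of -0.53 (SE 0.24, adjusted p = 0.141) and ENSG00000090920 one of -0.76 (SE 0.34, adjusted p = 0.138). The second of these had an adjusted p of 0.00259 without siNTRK2_Sen replicate 1.

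KIF1A was at 0.86, 1.46 and 0.826 CPM in siNTRK2_Sen and at 1.33, 2.12 and 1.91 in siBDNF_Sen, against 1.11 ± 0.108 (SD, n = 3) in siCtrl_Sen. PTPRT was at 0.584, 0.324 and 0.657 CPM in siNTRK2_Sen and at 0.76, 0.813 and 0.596 in siBDNF_Sen, against 0.914, 1.08 and 0.87 in siCtrl_Sen. PTPRC was at 0.568, 0.911 and 0.563 CPM in siNTRK2_Sen and at 1.01, 1.09 and 0.998 in siBDNF_Sen, against 1.05, 0.798 and 0.955 in siCtrl_Sen. KIF1A was thus highest with siBDNF and PTPRT highest with siCtrl, while PTPRC was lower in each siNTRK2 library than in each siBDNF library. None of the 3 passed the test between the silenced groups, with log2 fold changes of -0.76 for KIF1A (SE 0.27, adjusted p = 0.0526 from edgeR), -0.42 for PTPRT (SE 0.35, adjusted p = 0.472 from edgeR) and -0.57 for PTPRC (SE 0.30, adjusted p = 0.221 from edgeR). KIF1A passed in 8 of 14 alternative settings, PTPRT and PTPRC in 0. Set against the limit of 3 counts in each proliferating library, the siCtrl_Sen level was at least 19.4-fold higher for KIF1A, 16.7-fold for PTPRT and 16.4-fold for PTPRC, as a description of values the wider limit used.

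**Figure D2:**
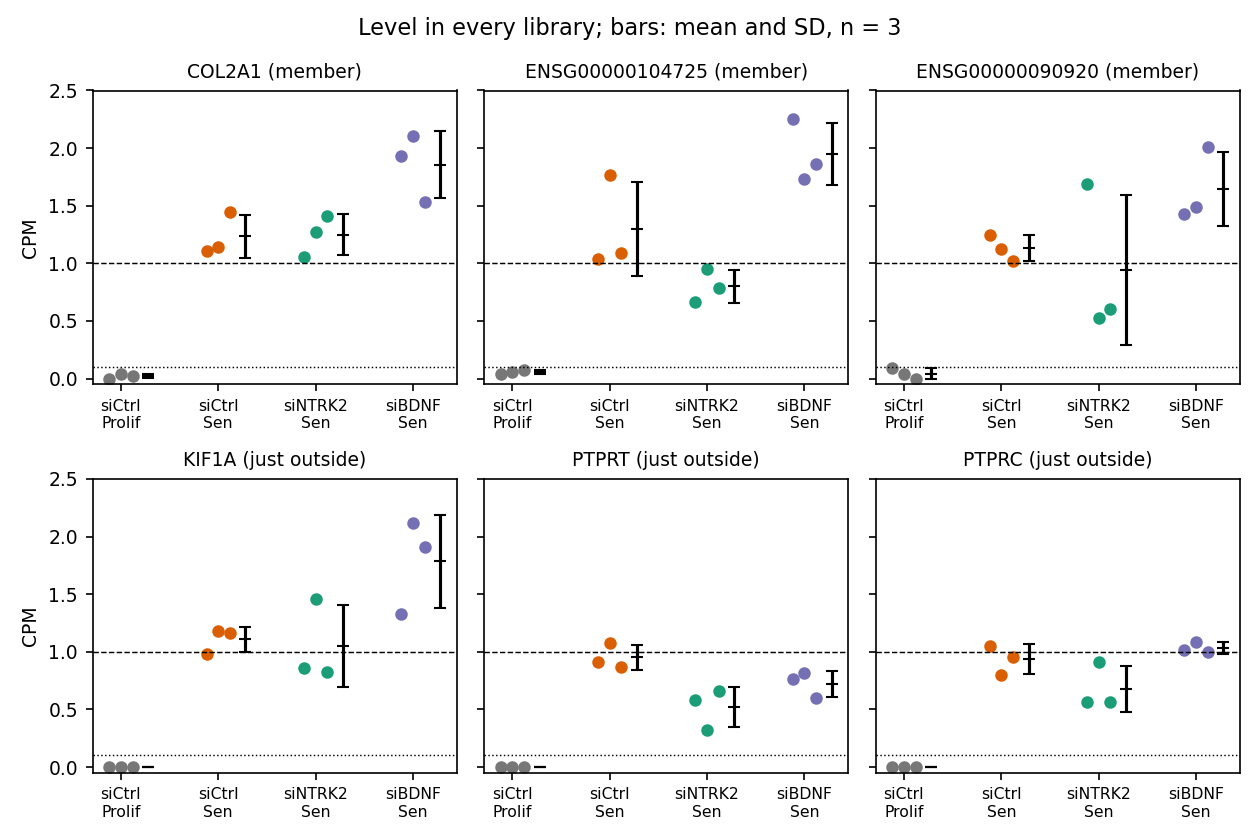
CPM (vertical axis) of the 3 members and of KIF1A, PTPRT and PTPRC in the 3 libraries of each group, with the mean and SD beside the points; the dashed and dotted lines are the limits of 1 and 0.1 CPM. For ENSG00000104725 the 3 siNTRK2_Sen libraries, at 0.666 to 0.951 CPM, lie below all siBDNF_Sen libraries, at 1.73 to 2.25.

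Marker genes of leukocytes and neurons were examined beside PTPRC and KIF1A. Of 25 leukocyte markers, 4 were at 1 CPM or more in all siCtrl_Sen libraries and 6 were under 0.1 CPM in all of them. Their summed level without PTPRC was 39.5 to 48.4 CPM in siCtrl_Prolif, 53.6 to 56.6 in siCtrl_Sen, 47.1 to 49.9 in siNTRK2_Sen and 55.0 to 59.4 in siBDNF_Sen, most of it from RAC2, which had a mean of 43.3 CPM in siCtrl_Sen. The lineage markers CD3D, CD2 and MS4A1 had means of 0.0406, 0.0116 and 0.0465 CPM in siCtrl_Sen and were at 0 in siCtrl_Prolif. Others were higher, such as CD14 at means of 0.173 CPM in siCtrl_Prolif and 0.51 in siCtrl_Sen, and LAPTM5 at 0.509 and 1.56. CORO1A and CD37 had lower means in siCtrl_Sen, with 4.86 and 1.3 CPM for CORO1A and 9.61 and 5.33 for CD37. All other leukocyte markers had higher means in siCtrl_Sen than in siCtrl_Prolif, so a higher mean was not particular to PTPRC. No marker was at 0 in all 12 libraries. Of 18 neuron markers listed, 17 were found by symbol, and NEFL was not. Members without a symbol in the name tables could not be matched to this list. Of the 17 markers found, 5 were at 1 CPM or more in all siCtrl_Sen libraries. The summed level of the 17 was 20.9 to 23.8 CPM in siCtrl_Prolif, 41.6 to 44 in siCtrl_Sen, 41.1 to 44.4 in siNTRK2_Sen and 58.5 to 61.0 in siBDNF_Sen. The neuronal intermediate filament INA had the highest mean of the neuron markers found in siCtrl_Sen, 22.8 CPM. Of those found, only NEFH had a lower mean in siCtrl_Sen (1.70 CPM) than in siCtrl_Prolif (1.93). KIF1A and NEFM, a neurofilament subunit, belong to that list and to the wider set. The summed level of 8 epithelial markers also differed, at 17.3 to 19.2 CPM in siCtrl_Prolif and 49.7 to 60.1 in siCtrl_Sen, most of it from the keratin KRT19 at means of 17.2 and 50.5 CPM. All 8 had higher means in siCtrl_Sen. Of 5 endothelial markers, TEK was at means of 73.1 and 32.6 CPM, and the other 4 had higher means in siCtrl_Sen than in siCtrl_Prolif, the highest being VWF at 0.743 and 1.85. The part of other cell types in the levels of the members was not tested. PTPRT and PTPRC overlap non-coding genes and pseudogenes on the other strand that were at 0.0351 CPM or less in siCtrl_Sen, and no overlap was listed for KIF1A and COL2A1.

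The wider set held 41 protein-coding genes, 7 long non-coding RNAs and 3 pseudogenes, with 3 genes absent from the annotation used. These 3 genes were given no functional class. Its levels in siCtrl_Sen had a median of 0.778 CPM. By hand-made classes, 10 genes act in neurons and synapses, among them KIF1A, NEFM, CBLN2, a secreted synapse organizer, RPH3A, an effector of RAB3 on synaptic vesicles, DLGAP1, a postsynaptic scaffold, and LINGO1, NELL2, CNTN1 and ATCAY. Another 7 belong to adhesion and the cytoskeleton: the cadherins CDH17 and CDH23, the alpha-catenins CTNNA2 and CTNNA3, the spectrin-binding ADD2 and the myosins MYO5B and MYO3B. The channels, transporters and pumps were TRPM8, the cold receptor, KCNN3, BEST3, ATP2B2 and SLC6A4, the serotonin transporter. Muscle genes were MYOZ2, PYGM, the muscle glycogen phosphorylase, and RYR1, the calcium release channel. Receptor enzymes and immune receptors were PTPRT, PTPRC, the receptor tyrosine kinase ALK and the Fc receptor FCGR1A, which has near-identical copies, so that its counts are uncertain, as are those of the pseudogene DDX11L1. The remaining named genes included the secreted CXCL14, APOD and LIPF and the enzymes CYP1A1, PDK4, DGKB and ART3.

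Of the gene lists drawn up for this tissue, few reached into the wider set. It held 2 of 19 tested receptor-type tyrosine phosphatases (PTPRT and PTPRC), 2 of 76 cadherins and protocadherins, 3 of 160 ion channel subunits, 2 of 45 synaptic vesicle and presynaptic genes, 1 of 38 kinesins, 1 of 279 solute carriers, 1 of 46 chemokines and interleukins (CXCL14) and 1 of 25 sarcomere and muscle genes (RYR1). It held 0 of 39 tested p53 target genes, 0 of 54 metalloproteinases, 0 of 25 genes of TNF ligands and receptors, 0 of 20 serpins, 0 of 20 adhesion G protein-coupled receptors, 0 of 12 germ cell genes and 0 of 110 developmental transcription factors. The wider set is 0.251% of all tested genes, so lists of these sizes would hold few of its genes or none at that share, and nothing is read from the counts of 0. COL2A1 was in none of these lists. The other members, to which the name tables used here gave no symbol, could not be looked up in them.

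The protein-coding genes of the wider set were long. Their median length from start to end was 160.6 kb, against 34.6 kb for the 1298 protein-coding genes tested whose mean siCtrl_Sen level lay between 0.5 and 1.5 CPM and 34.5 kb for all 15077 tested. In the wider set, 15 of the 41 (36.6%) spanned more than 300 kb, against 9.48% of the genes of like level. Examples were CTNNA3 at 1851 kb, CTNNA2 at 1464 kb and PTPRT at 1117 kb. Exon length differed less, with a median of 7.38 kb against 4.69 kb, and CPM rises with exon length, so longer mRNAs reach a CPM limit more easily. COL2A1, at 31.6 kb, was not long. Gene length entered neither limit of the rule, and no test was made of this difference.

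**Figure D3:**
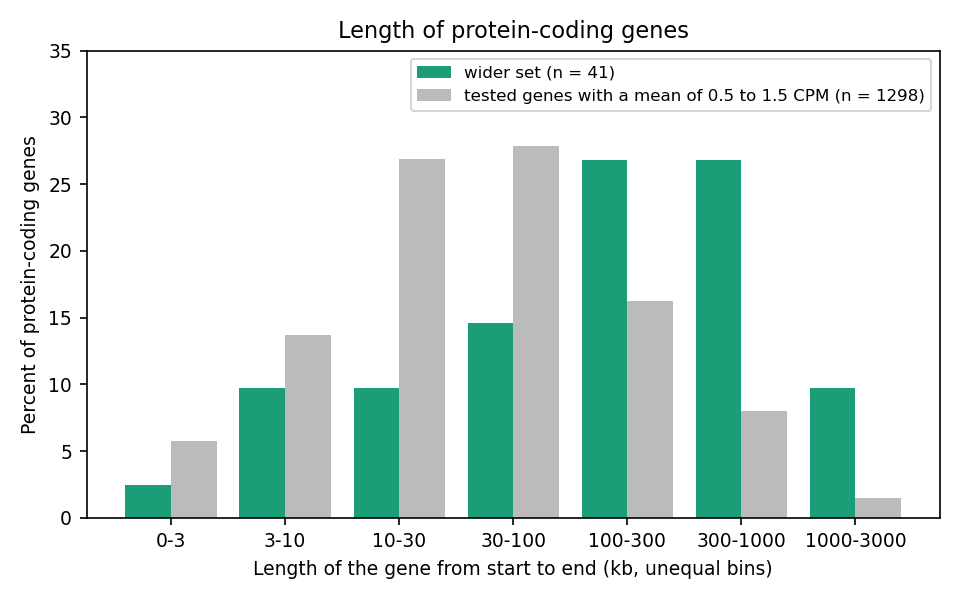
Percent of protein-coding genes (vertical axis) by length of the gene from start to end in kb (horizontal axis, unequal bins), for the 41 genes of the wider set and for the 1298 tested genes with a mean of 0.5 to 1.5 CPM in siCtrl_Sen. In the wider set 36.6% of the genes were longer than 300 kb, against 9.48% in the other group.

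The summed level of the 54 genes was 1.27 to 1.47 CPM in siCtrl_Prolif, 42.5 to 44.2 in siCtrl_Sen, 30.8 to 33.1 in siNTRK2_Sen and 50.5 to 52.96 in siBDNF_Sen. The limits fixed the order of the siCtrl groups and used the siCtrl_Sen levels, so the sums beside those groups are a description. The silenced groups, which the limits did not use, did not overlap. The median over genes of the group mean was 0.778 CPM in siCtrl_Sen, 0.543 in siNTRK2_Sen and 0.854 in siBDNF_Sen. In siNTRK2_Sen 12 genes were under 0.5 CPM in all 3 libraries, among them ALK, SLC6A4, CTNNA3, RPH3A, PYGM, ADD2, DGKB and RYR1, and in siBDNF_Sen no gene was. That line is the limit of the set, and some genes were just over it in siCtrl_Sen. The lowest siCtrl_Sen level was 0.503 CPM for RPH3A and 0.511 for ALK, so a small fall could cross the line. The same count was not made over other genes. In 53 of 54 genes every siNTRK2_Sen library stayed above every siCtrl_Prolif library. The exception was PYGM, with 0.0376 CPM in siNTRK2_Sen replicate 3 against up to 0.0515 in siCtrl_Prolif. The limits favour this outcome, since they held siCtrl_Prolif under 0.1 CPM and siCtrl_Sen at 0.5 CPM or more. A gene therefore had to fall far to overlap siCtrl_Prolif, and the count is a description only.

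Compared directly, 49 of the 54 genes had a lower estimate with siNTRK2 than with siBDNF, with a median log2 fold change of -0.58, against -0.004 over all tested genes and -0.04 over the 2669 tested genes of like level. By edgeR's test 11 of the 54 (20.4%) were lower and 0 higher, where 7.86% and 8.84% of all tested genes were. Of the 2669 tested genes of like level, 104 were called lower and 74 higher. No gene was higher at an unadjusted p under 0.05 either, as 14.9% of all genes were by edgeR, or by DESeq2, which also called 11 lower, the same genes. The groups did not overlap in 22 genes, 21 of them lower, where 34.2% of all tested genes did not overlap. Leaving out 1 library gave 6 to 13 called genes, the fewest without siBDNF_Sen replicate 3 (6 genes) and replicate 2 (7 genes), with 47 to 50 of the 54 lower.

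LINC00520, a long non-coding RNA, differed most, at 0.422, 0.364 and 0.338 CPM with siNTRK2 and 1.36, 1.09 and 1.52 with siBDNF (log2 fold change -1.77, SE 0.32, adjusted p = 2.50e-04 from edgeR). ALK was at 0.292, 0.142 and 0.263 CPM with siNTRK2 and 0.634, 0.859 and 0.834 with siBDNF (log2 fold change -1.69, SE 0.44, adjusted p = 0.009 from edgeR). SLC6A4 was at 0.406, 0.263 and 0.225 CPM with siNTRK2 and 0.982, 1.29 and 0.73 with siBDNF (log2 fold change -1.68, SE 0.39, adjusted p = 0.00346 from edgeR). In these 3 genes the groups were well apart, and siCtrl_Sen lay between them or near siBDNF_Sen, at 0.511 to 0.851 CPM for ALK and 0.59 to 0.887 for SLC6A4. LINC00504, also non-coding, and the alpha-catenin CTNNA3 followed at -1.57 and -1.35 (adjusted p = 0.0138 and 0.0367 from edgeR), and CTNNA3 passed in 2 of 6 fits without 1 library. The other named genes called lower were PDK4, a kinase that inhibits pyruvate dehydrogenase, CYP1A1, a target of the aryl hydrocarbon receptor, MYO5B, TRPM8 and CBLN2, with log2 fold changes of -1.19, -1.14, -1.13, -1.06 and -0.98. Of the 11 genes, ENSG00000104725, LINC00520, ALK and SLC6A4 passed in all 6 fits without 1 library, and PDK4 passed in 1. By class, all 7 adhesion and cytoskeleton genes, all 5 channels and transporters, all 4 enzymes and all 4 receptors had a lower estimate with siNTRK2, and 2, 2, 2 and 1 of them passed. Among the 10 neuronal genes 9 had a lower estimate and 1 passed (CBLN2), and the muscle genes MYOZ2 and RYR1 lay at 0.01 and 0.09.

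**Figure D4:**
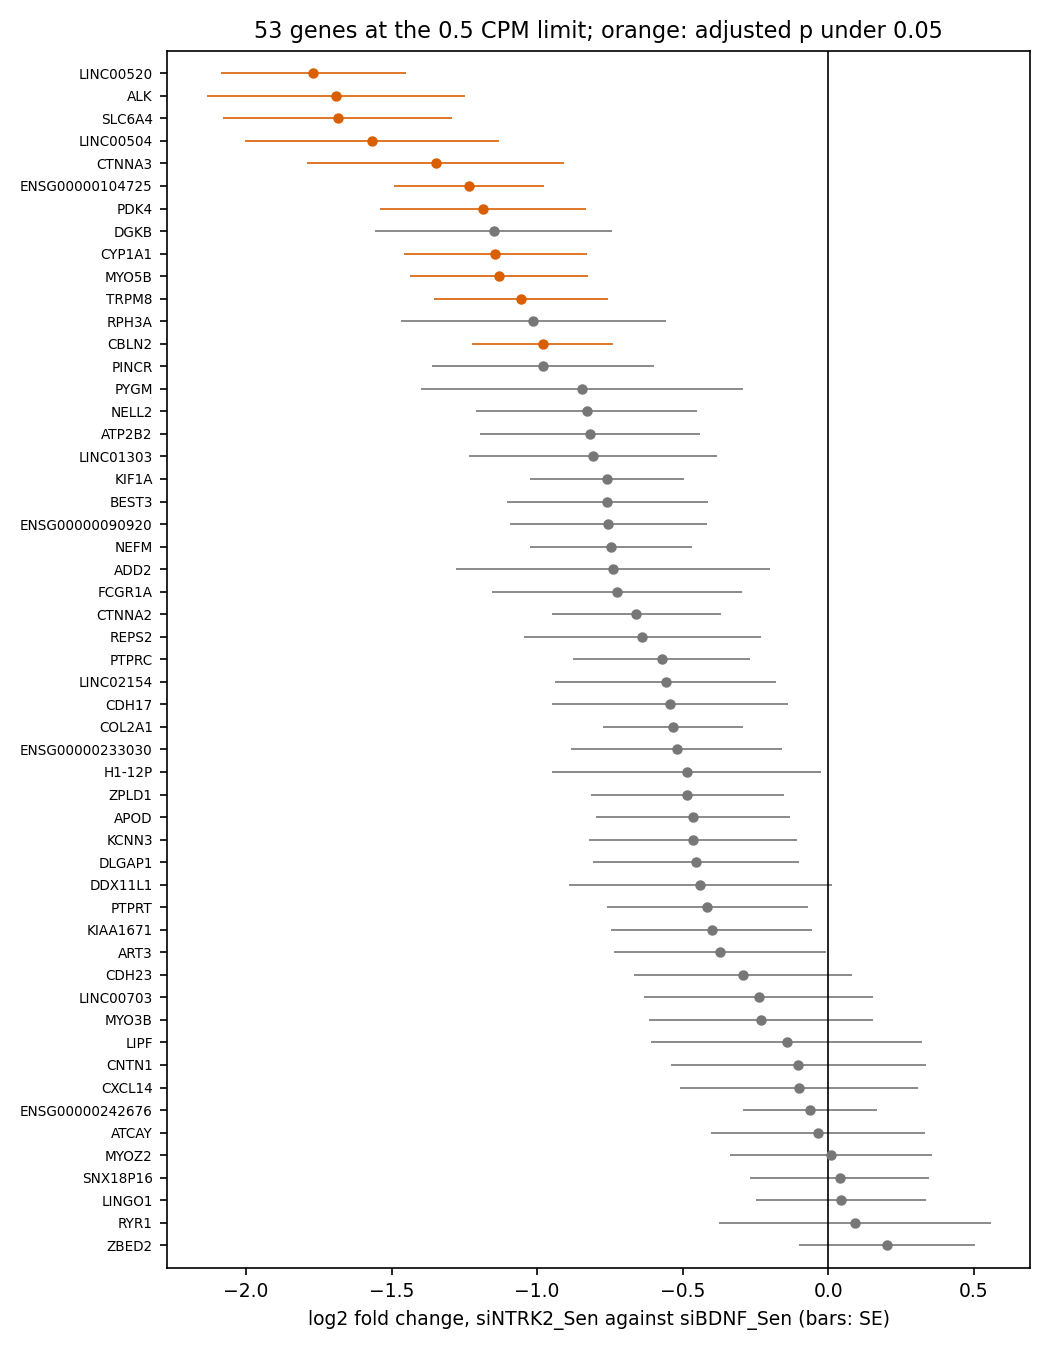
Log2 fold change of siNTRK2_Sen against siBDNF_Sen (horizontal axis, bars are the SE) for 53 of the 54 genes of the wider set, ordered by value; the 11 orange points had an adjusted p under 0.05. The points run from -1.77 (LINC00520) to 0.20 (ZBED2), with 48 of the 53 left of 0.

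Against siCtrl_Sen, whose libraries the wider limit used, siNTRK2 gave a median log2 fold change of -0.53, against -0.002 over all genes and -0.06 over genes of like level. The genes that passed were 5 lower (ALK at -1.57, LINC00504 at -1.53, CTNNA3 at -1.26, SLC6A4 at -1.25 and MYO5B at -0.87) and 0 higher by edgeR, and likewise 0 higher by DESeq2 or at an unadjusted p under 0.05, as 16.5% of all genes were by edgeR. That share, 9.26%, was near the 10% of all tested genes that were called lower. Of the 2669 tested genes of like level, 73 were called lower, a smaller share than 9.26%, and 113 higher. The limit used siCtrl_Sen, so nothing is read from this difference. Which genes of the wider set passed depended on single libraries. Without siCtrl_Sen replicate 1, 3 genes were called, 2 of them among these 5. Without siNTRK2_Sen replicate 3 it was 3 genes, 1 of them among the 5, without siCtrl_Sen replicate 3 it was 2, both among the 5, and without siNTRK2_Sen replicate 2 it was 8, with 3 of the 5. Of the 5 genes, ALK passed in all 6 fits without 1 library, LINC00504 in 4, SLC6A4 in 2, and CTNNA3 and MYO5B in 1 each. With siBDNF the median was 0.09, and 4 genes (7.41%) were higher and 0 lower by edgeR, where 10.3% and 10.2% of all genes were. Of the 2669 tested genes of like level, 85 were called higher, a smaller share than 7.41%, and 36 lower. DESeq2, which gave an adjusted p for 28 of the 54, called the same 4 and 0 lower. At an unadjusted p under 0.05 by edgeR 1 gene was lower, as were 15% of all genes. These 4 were CBLN2 at 1.27, TRPM8 at 1.16, LINC00520 at 0.92 and NEFM at 0.90 on the log2 scale, and 2 of them were called without siCtrl_Sen replicate 1 or siBDNF_Sen replicate 3. CBLN2 and TRPM8 passed in all 6 fits without 1 library, NEFM in 2 and LINC00520 in 1. CBLN2 was at 1.001, 0.868 and 0.921 CPM in siCtrl_Sen and 2.44, 1.93 and 2.65 in siBDNF_Sen, and TRPM8 at 0.826, 0.625 and 0.648 and at 1.49, 1.75 and 1.62, so neither overlapped. All 3 muscle genes had a lower estimate with both siRNAs and none passed: MYOZ2 was at -0.85 with siNTRK2 and -0.86 with siBDNF.

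Summed markers of senescence and of proliferation differed between siNTRK2_Sen and siCtrl_Sen. The summed level of 4 senescence markers (CDKN1A, CDKN2A, GDF15 and IL6) was 3050 to 3172 CPM in siCtrl_Sen, 2130 to 2296 in siNTRK2_Sen and 3126 to 3200 in siBDNF_Sen, which overlapped siCtrl_Sen, against 958 to 996 in siCtrl_Prolif. Most of it was CDKN1A, the cell cycle inhibitor p21, at means of 2855 CPM in siCtrl_Sen and 2043 in siNTRK2_Sen. CDKN2A had means of 36.1 and 42.2 CPM in these groups, and IL6 had means of 7.71 CPM in siCtrl_Prolif and 6.66 in siCtrl_Sen, so the genes of the list did not all go one way. The proliferation markers were at 53.3 to 56.6 CPM in siNTRK2_Sen and 30.6 to 33.0 in siBDNF_Sen, next to siCtrl_Sen, and the fibroblast markers, mostly COL1A1 and COL1A2, at 22680 to 25353 and 20678 to 21202. Their part in the lower level of the wider set with siNTRK2 was not tested.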

How the data were processed

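RNA of WI-38 fibroblasts was sequenced in 12 libraries. The authors trimmed reads with Cutadapt, aligned them to hg19 (Ensembl annotation) with STAR 2.4.0j, counted them per gene with featureCounts 1.6.4 and deposited raw counts; the strand setting is not given in the sources used here. CPM were computed from column totals. Counts were tested in R 4.3.3 with edgeR 4.0.16 (TMM, filterByExpr, 1 quasi-likelihood fit of 12 libraries, 21518 genes, Benjamini-Hochberg); DESeq2 1.42.0 was an alternative, and the models were tested on simulated data. Fold changes are log2, and SE is the fold change over the square root of F. Intervals and the limit of 3 counts cover counting error only. Replicates differed by more than counting noise (chi-square of 3.92 to 13.6 a gene), so none was taken for a repeat of another. Same-numbered libraries did not deviate together (mean correlation 0.0076, n = 18 pairs).

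The members and lists were chosen with earlier results of these data known. Members were named by level, by list, by the 5 largest called changes and by nearness to the limits; genes of the wider set were named by the same rule, and the others, with the classes, after their values were seen. Gene names and lengths came from tables of hg19 annotation, which paired 43521 of 57773 identifiers with a symbol. A few genes that entered the counts are not reported here by name or value.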

Additional observations from a re-analysis of the deposited data

Results flagged for a closer look

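In the direct comparison of siNTRK2_Sen with siBDNF_Sen by edgeR's quasi-likelihood test, 11 genes of the wider set, each measured in 3 libraries a group, differed between the siRNAs. The log2 fold changes were -1.77 for LINC00520, -1.69 for ALK, -1.68 for SLC6A4, -1.57 for LINC00504, -1.35 for CTNNA3, -1.23 for ENSG00000104725, -1.19 for PDK4, -1.14 for CYP1A1, -1.13 for MYO5B, -1.06 for TRPM8 and -0.98 for CBLN2. All were lower with siNTRK2. Over 13 or 14 alternative settings LINC00520, ENSG00000104725, SLC6A4 and ALK passed in every one, while CTNNA3 passed in 8 of 13 and PDK4 in 9 of 14.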

How the results depend on the processing

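The number of members depends on both limits of the rule. It was 3 with TMM library sizes, 1 with an upper limit of 0.05 CPM, 19 with 0.2 CPM, 0 with a lower limit of 2 CPM, 54 with 0.5 CPM, and 20 with group means in place of every library, a setting chosen after seeing the data. Without 1 of the 6 libraries of the rule it was 3 to 7, and all 3 members were kept each time. With siNTRK2 against siCtrl, 1 member was called with at least 10 counts in every senescent library and with only the senescent libraries, and 0 to 1 when 1 library was left out, with or without the fold change cutoff. With siBDNF against siCtrl leaving out 1 library gave 0 to 1 called member, and 0 with the cutoff. With siNTRK2 against siBDNF it gave 1 to 2, by either threshold. For the wider set, whose settings were all added after the data were seen, siNTRK2 against siCtrl gave 8, 3 and 11 called genes with at least 10 counts in every senescent library, only the groups compared and only the senescent libraries, and 2 to 8 without 1 library; siBDNF against siCtrl gave 7 with only the groups compared and 2 to 5 without 1 library. The median log2 fold change of the wider set with siBDNF against siCtrl was 0.15 with library totals only and 0.23 with at least 10 counts in every senescent library, where 45 of the 54 genes remain, and 0.0541 to 0.14 without 1 library; the cause was not tested. That of siNTRK2 against siCtrl was -0.60 to -0.49, and that of siNTRK2 against siBDNF -0.67 to -0.57, when 1 library was left out, and the latter gave 6 to 13 called genes. Estimates near 0 changed sign: COL2A1 with siNTRK2 against siCtrl was 0.00986 with library totals only, 0.00468 without a filter, and -0.11 to 0.14 without 1 library. ENSG00000090920 and KIF1A with siNTRK2 against siCtrl ran from -1.02 to 0.0228 and from -0.40 to 0.0332, and PTPRC with siBDNF against siCtrl from -0.0198 to 0.18. The labels do not say whether the replicate numbers pair the libraries. With the replicate block 12 genes of the wider set were called between siNTRK2 and siBDNF, 10 of them among the 11. The block called 5 with siNTRK2 against siCtrl, 4 of them among the 5, and 4 with siBDNF against siCtrl, the same genes. The members called were 1, 0 and 0, in that order. CTNNA3 lost its call under the block in both siNTRK2 comparisons (adjusted p = 0.0558 against siCtrl and 0.055 against siBDNF, from edgeR). At about 1 CPM a library held 32 to 73 counts, which limits small differences.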
